A study of Glycine max with 6 samples.

Results

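SAT1 and SIR are soybean (Glycine max) genes of sulfur assimilation, and they were represented by 4 of the 18361 cDNA clones on the array. The members were all clones whose single gene symbol in the platform's probe annotation was SAT1 or SIR. SAT1 (gene identifier 606507) had 1 clone, Gm-r1021-624, and SIR (gene identifier 547693) had 3 clones, Gm-r1083-2910, Gm-r1070-52 and Gm-r1083-4117. Total root RNA of Clark, an Fe-efficient line, was compared with that of IsoClark, its Fe-inefficient near isogenic line, both grown in the same Fe-sufficient hydroponic solution. IsoClark carries the Clark background after repeated backcrossing from an Fe-inefficient parent, so each genotype is 1 inbred line, and each RNA sample pooled the roots of several plants of 1 hydroponic unit. Both lines were hybridized together on each of 6 two-colour arrays, as 3 biological replicates of 2 dye-swap arrays each. IsoClark was labelled with Cy3 on 3 arrays, called IsoClark-Cy3 arrays here, and with Cy5 on the other 3, called IsoClark-Cy5 arrays.

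Plants take up sulfur as sulfate and reduce it in plastids, first to sulfite and then to sulfide. Sulfite reductase, the product of SIR, carries out the second reduction with electrons from ferredoxin, and it holds a siroheme and an iron-sulfur cluster, so the enzyme itself needs Fe. SIR is also listed under the synonym DCP68, a name for a protein that compacts plastid DNA. Serine acetyltransferase, the enzyme for which SAT1 is named here, makes O-acetylserine, the carbon skeleton that receives the sulfide. O-acetylserine(thiol)lyase joins both into cysteine and can form a complex with serine acetyltransferase. Cysteine is the source of methionine, glutathione and iron-sulfur clusters. The annotation pairs each symbol with an identifier and gives no product, and the symbol SAT1 has also been used in soybean for an unrelated protein linked to ammonium transport, so the identity of the SAT1 clone rests on its symbol.

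Neither gene passed the test for a difference between the lines. The SAT1 clone was brighter in IsoClark on all 4 of its usable arrays, with a mean difference of 0.28 on the log2 scale that did not reach the threshold. The direction on 2 of these arrays rests on dye fields that another source contradicts, and with 1 or the other of them turned the SAT1 mean was 0.19 or 0.13. The SIR clones had means between -0.29 and 0.02, and none of the 3 kept 1 direction in the 3 replicates. The 95% intervals of all 4 clones lay within 2-fold in either direction, and 97.91% of all clones tested had intervals that narrow.

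The arrays set the precision of these values. Between 18.89% and 44.21% of cDNA spots per array were marked poor by the image software and were left out, and the median spot was 3.31 to 18.26 times its local background, depending on array and dye. Over the 13430 clones that could be tested, the median difference between lines was 0.12 in size (log2) and the median SD between replicates was 0.22. All 6 arrays were usable for 19.49% of tested clones, and 42.11% rested on 4 arrays or fewer, as all SAT1 and SIR clones did. The labels give the dye of each line on each array. On the IsoClark-Cy3 array of replicate 3 the ratio column deposited by the authors runs opposite to the label, and on the IsoClark-Cy5 array of replicate 2 the labelling protocol text names the other dyes, so the direction on these arrays rests on the dye fields. Between arrays, the IsoClark over Clark ratios of all tested clones correlated weakly, with r from -0.30 to 0.26. The swap arrays of replicates 1, 2 and 3, which hold the same RNA extracts, correlated at 0.13, -0.05 and -0.09. These values are a description over clones that share slides and labelling. Photosynthesis genes named as green tissue markers (CAB3, PSAD and ELIP, 11 clones) were above background in 90.91% to 100% of their spots per array in both lines. Of all cDNA spots, 85.09% to 98.73% per array were above background in either channel, so the marker share does not single out green tissue. Seed and cotyledon markers (28 clones) stood at 64.29% to 96.43%, and the nodule marker N-36A (1 clone) was above background on 4 arrays. No root-defining marker was among the named genes, and the label of root tissue was therefore not checked by expression. In RNA of whole roots, fewer cells of a type and less RNA per cell cannot be told apart.

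All 4 clones gave signal in both lines. Of 48 channel readings of their 24 spots, 46 were above background, taken as a signal mean over the background median plus 2 background SD. Both exceptions were Clark readings on spots marked poor, 1 of SAT1 and 1 of SIR clone Gm-r1083-4117. Such signal was common on these arrays. Between 85.09% and 98.73% of all cDNA spots per array were above background in at least 1 channel. Of the channel readings of blank spots, 7.547% were above background too. Each clone was spotted once per array, and each had 2 of its 6 spots marked poor. Brightness of different spots depends on the spotted cDNA as well as on the transcript, so the levels of the clones were not ranked against each other. The Cy5 channel stood higher over its background than the Cy3 channel on 22 of the 24 spots, whichever line it held, and the line ratios below were therefore taken after dye normalization.

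**Figure D1:**
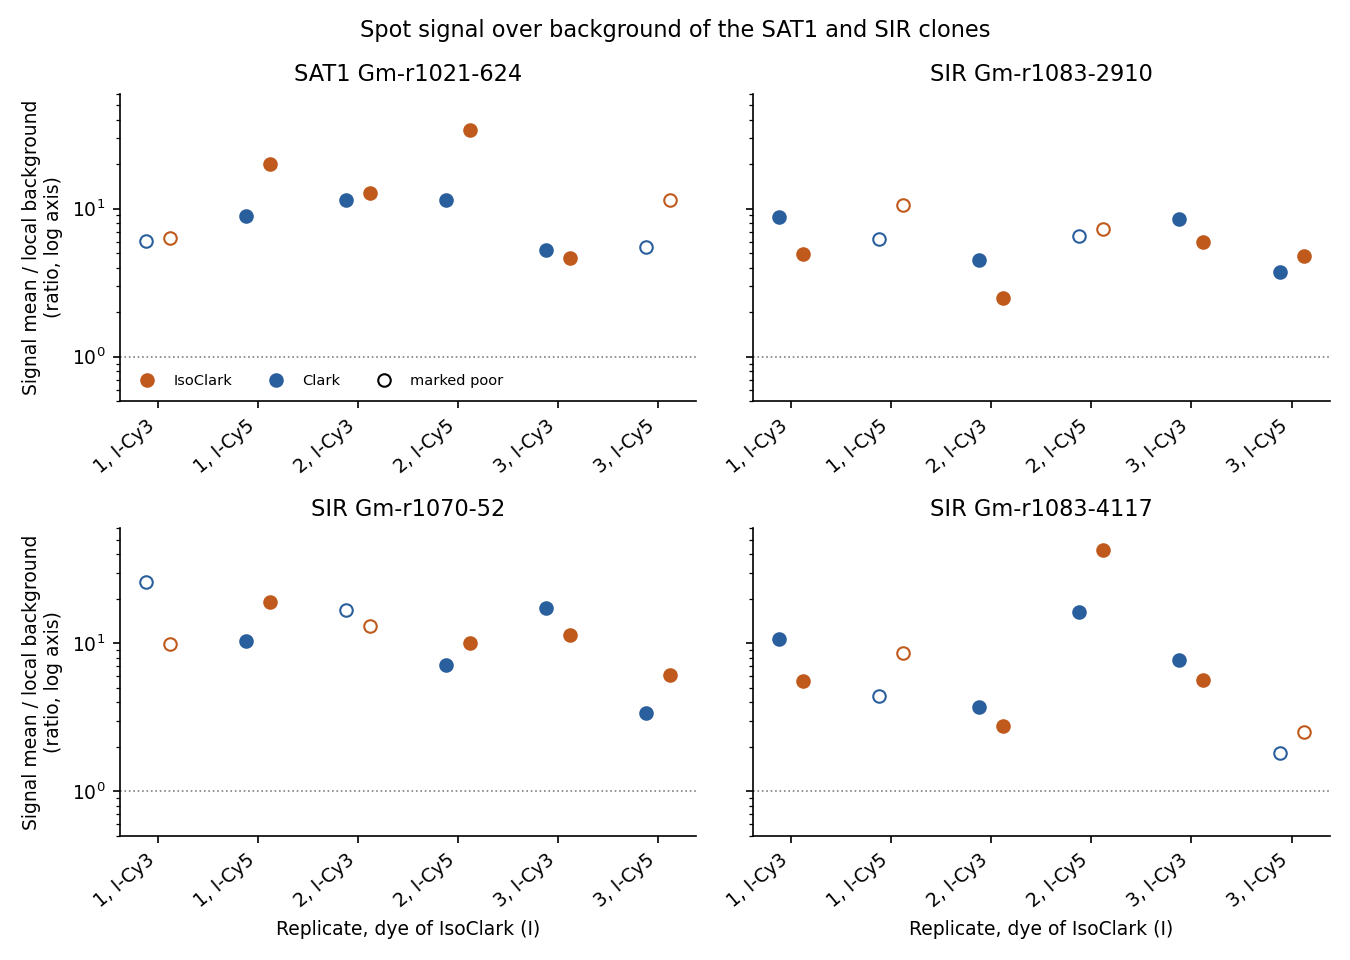
Spot signal mean divided by local background median (log axis) for each clone on the 6 arrays, in IsoClark (orange) and Clark (blue), before dye normalization. Open points are spots marked poor, the dotted line is a signal equal to background, and the axis names the replicate and the dye that held IsoClark (I). All readings lie above 1, from 1.813 to 42.46, and the line that stands higher changes with the dye in the SIR clones.

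The SAT1 clone was above background in 11 of 12 channel readings. Its signal was between 4.639 and 34.1 times background (median 10.15), and its spot ranked between percentiles 43.06 and 83.18 of cDNA spots on its array. In replicate 1 the IsoClark-Cy5 array read 14966 intensity units for IsoClark and 8434 for Clark, before dye normalization. In replicate 2 IsoClark read 12059 in Cy3 and 21823 in Cy5, against 7547 and 18970 for Clark. In replicate 3 the IsoClark-Cy3 array read 4175 for IsoClark and 3227 for Clark. By the dye fields IsoClark was the brighter channel on each of these arrays, 2 of which are the arrays of doubtful direction, while the brightness of the spot itself differed several-fold between arrays. After normalization the mean log2 signal of SAT1 was 12.99 ± 1.17 (SD, n = 3) in IsoClark and 12.71 ± 1.11 (SD, n = 3) in Clark, so the spread between replicates was wider than the gap between the lines on the same arrays.

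Within arrays, the SAT1 ratio of IsoClark over Clark was steadier than its level. On the log2 scale the ratio was 0.25 in replicate 1 and 0.23 in replicate 3, each from 1 array, and 0.46 and 0.26 on the swap arrays of replicate 2. All 4 values were above 0 by the dye fields. With the IsoClark-Cy5 array of replicate 2 turned, 3 of 4 were above 0 and the mean was 0.19 (unadjusted limma p 0.185). With the IsoClark-Cy3 array of replicate 3 turned, 3 of 4 were above 0 and the mean was 0.13 (unadjusted limma p 0.444). With both arrays turned, both of their values would lie below 0. That mean was not computed, and it would be lower than either of these means. The replicate values of 0.25, 0.36 and 0.23 gave a mean of 0.28 ± 0.07 (SD, n = 3), a 1.215-fold higher signal in IsoClark with a 95% interval from 0.9926-fold to 1.486-fold. In the limma fit across all clones, the unadjusted p was 0.05683 and the Benjamini-Hochberg adjusted p was 0.796. The exact two-sided sign-flip test over the 3 replicates gave p = 0.25, the smallest it can give. Among all tested clones 15.8% were higher in IsoClark in all 3 replicates and 13.3% were higher in Clark in all 3, and 13.48% had a difference larger in size than that of SAT1.

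The poor spots of SAT1 did not share this evenness. When no spot was left out, the ratio was 1.13 on the IsoClark-Cy3 array of replicate 1 and -0.12 on the IsoClark-Cy5 array of replicate 3. The first of these spots sat on a background with a large SD, 4892 units in the Cy5 channel against a background median of 1706, and the second had a pixel SD of 130.2% of its mean in Cy3. They are the highest and the lowest of the 6 SAT1 ratios, and with them the clone was higher in IsoClark on 5 of 6 arrays.

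SIR clone Gm-r1083-2910 had the lowest mean ratio and the widest spread. Its signal was 2.49 to 10.56 times background (median 6.064), and its spot ranked between percentiles 23.31 and 53.95 on its array. The log2 ratio was 0.26 in replicate 1 and -0.87 in replicate 2, each from the IsoClark-Cy3 array, and -0.08 and -0.46 on the swap arrays of replicate 3. By the dye fields IsoClark was thus higher on 1 array and Clark on 3, and the -0.08 is from an array of doubtful direction. The mean was -0.29 ± 0.57 (SD, n = 3), and its 95% interval reached from -0.80 to 0.21. The limma fit gave it an adjusted p of 0.801. The exact sign-flip test gave p = 0.5.

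Among the usable spots of this clone, the lowest ratio came from the spot nearest to background. On the IsoClark-Cy3 array of replicate 2, IsoClark read 2013 units over a background of 808, and Clark read 2463 over 546. The replicate 1 array with the opposite sign had a signal mean of 5286 in IsoClark, with a pixel SD of 10223 over 45 pixels, which is 193.4% of the mean. Without replicate 2 the mean ratio of this clone was -0.004, and without replicate 1 it was -0.57 with an adjusted p of 0.539. By the dye fields, the ratio on the poor spot of replicate 2 with IsoClark in Cy5 was -0.96, near the -0.90 of its swap partner. Both values are from the processing that left no spot out. The poor spot was farther from background, at 6.511 times background in Clark and 7.291 times in IsoClark. The IsoClark-Cy5 array of replicate 2 is of doubtful direction, and with it turned both ratios would have opposite signs.

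SIR clone Gm-r1070-52 was above background in both lines on all 6 arrays. Its signal was 3.38 to 25.83 times background (median 10.87), with pixel SD between 23.39% and 64.83% of the spot mean. The log2 ratio was -0.24 in replicate 1 and -0.44 in replicate 2, each from the IsoClark-Cy5 array, and 0.04 and 0.25 on the swap arrays of replicate 3. The replicate 2 array, where IsoClark read 4121 and Clark 7687 units, is the one whose protocol text names the other dyes, and with it turned the mean became 0.12. The 0.04 is from the other array of doubtful direction, and with that array turned the mean was -0.19. As labelled, the mean was -0.18 ± 0.30 (SD, n = 3), and its 95% interval reached from -0.54 to 0.18. The limma fit gave it an adjusted p of 0.820. The exact sign-flip test gave p = 0.5.

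SIR clone Gm-r1083-4117 was nearest to equal in both lines. The log2 ratio was 0.06 in replicate 1 and 0.17 in replicate 3, each from the IsoClark-Cy3 array, and -0.23 and -0.08 on the swap arrays of replicate 2. The 0.17 and the -0.08 are from the arrays of doubtful direction. With 1 or the other turned, the mean was -0.089 or 0.052, in that order. As labelled, the mean was 0.02 ± 0.17 (SD, n = 3), with a 95% interval from -0.29 to 0.34, an adjusted limma p of 0.983 and an exact sign-flip p of 0.75. Of all clones tested, 88.45% had a larger difference. On 1 array the spot was much brighter than elsewhere, with 25727 units in Clark and 23823 in IsoClark on the IsoClark-Cy5 array of replicate 2, against 1197 to 6847 on the other 5 arrays. That spot ranked at percentile 88.94 of its array, while the clone's median rank was percentile 29.95, and its pixel SD was 78.91% and 86.64% of the mean. Its line ratio, -0.08, did not stand apart.

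**Figure D2:**
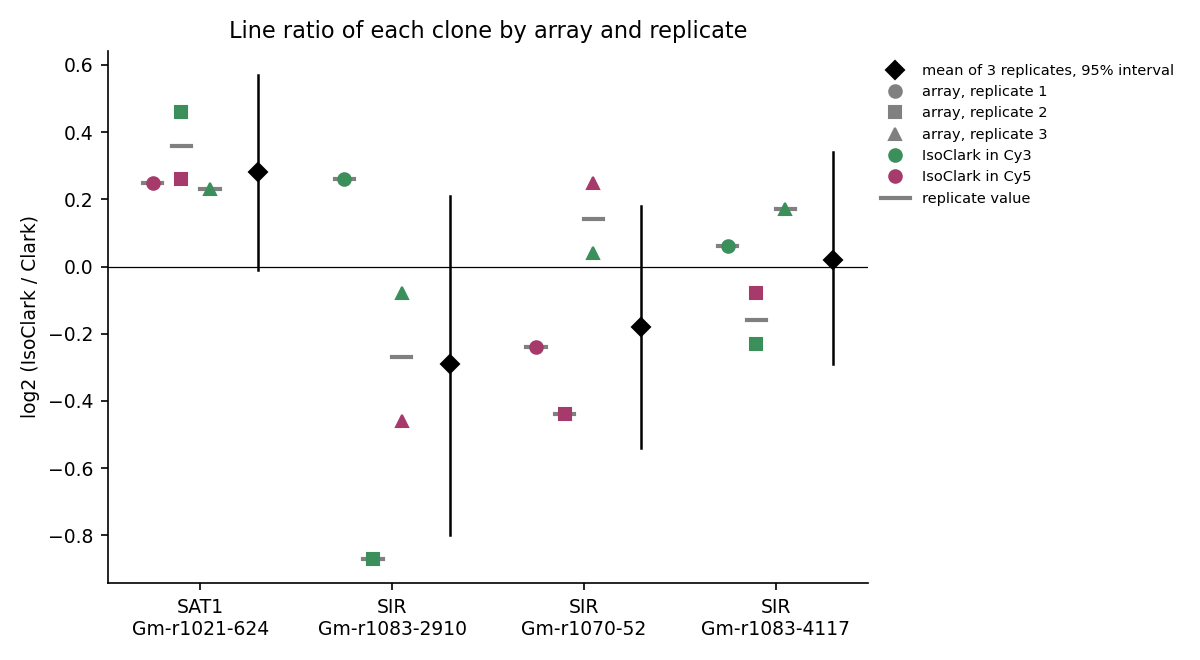
Log2 IsoClark over Clark ratio of each clone on each usable array (symbols by replicate, colours by the dye of IsoClark), with the replicate values as grey bars and the mean of 3 replicates with its 95% interval from limma as diamonds. The SAT1 values lie between 0.23 and 0.46, and the values of each SIR clone fall on both sides of 0.

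The 3 SIR clones stand for 1 gene, so they share their transcript and are not replicates of it. Their mean ratios spanned 0.32 on the log2 scale, from -0.29 to 0.02, less than the replicate SD of the most variable clone. Averaged over the 3 clones, the SIR ratios of the 3 replicates were 0.03, -0.49 and 0.01, with a mean of -0.15 ± 0.30 (SD, n = 3). Each SIR clone had its lowest value in replicate 2, a pattern seen after the values were known, and 34.9% of all tested clones had theirs there too. Within replicate 2 the clones still differed by 0.72, from -0.87 to -0.16. Replicate 2 was also the one in which SAT1 had its highest ratio, and SAT1 stood above the SIR mean by 0.22, 0.85 and 0.22 in replicates 1, 2 and 3. This gap of 0.43 ± 0.37 (SD, n = 3) compares different spots and was not tested.

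Swap arrays hold the same RNA extracts with the dyes exchanged, and they show the measurement error of a single spot. Each clone had 1 replicate with both swap arrays usable, and by the dye fields all 4 of these pairs had the same sign on both arrays. Each pair holds 1 of the arrays of doubtful direction, and with that array turned 0 of 4 pairs had the same sign. The sizes of the differences within pairs were 0.20 for SAT1 and 0.38, 0.21 and 0.15 for SIR clones Gm-r1083-2910, Gm-r1070-52 and Gm-r1083-4117, against a median of 0.32 over all clones. Over all clones, 48.8% of pairs had the same sign. By the dye fields, the difference within the pair was larger in size than the mean line ratio for the 3 SIR clones, and smaller for SAT1. With the doubtful array turned, the SAT1 values of 0.46 and 0.26 would have opposite signs, so these sizes too rest on the dye fields. The other 8 of 12 replicate values rested on a single array, in which a dye effect of the clone is not balanced. In a fit of all 6 arrays with a dye term, the fitted Cy5 over Cy3 effects of the 4 clones were between -0.11 and -0.04 (log2), with adjusted p of 0.909 to 0.959.

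Cysteine synthesis beyond SAT1 was represented by 9 clones of 5 O-acetylserine(thiol)lyase genes. Of these, 4 clones of 3 genes could be tested, 2 were above 0 and 2 below, and none passed. OAS-TL3 clone Gm-r1083-1058 had a mean ratio of -0.09 ± 0.10 and OAS-TL4 clone Gm-r1083-2713 one of 0.05 ± 0.10 (SD, n = 3 each). The clones of LOC547631, whose synonyms name it as a member of this family, had means of -0.03 ± 0.21 and 0.11 ± 0.28 (SD, n = 3 each). The remaining clones missed a replicate or, for OAS-TL7, were above background on 1 array only. Their values lay on both sides of 0, with -0.45 and -0.50 in replicates 1 and 2 for the OAS-TL1 clone and 0.50 and -0.01 in the same replicates for OAS-TL3 clone Gm-r1083-1798. Over the listed clones of sulfite reduction and cysteine synthesis, SAT1 and SIR included, 8 of 13 were tested, 4 above 0 and 4 below. Their median was -0.003, beside 0.003 for all tested clones. The list held no clone of sulfate uptake or activation.

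Methionine, S-adenosylmethionine and thiol metabolism were represented by 21 clones of 6 genes, and 16 clones were tested. Cystathionine gamma-synthase (CGS2) and the bifunctional aspartokinase and homoserine dehydrogenase (AK-HSDH) lead to methionine, S-adenosylmethionine decarboxylase (SAMDC) uses its activated form in polyamine synthesis, and metallothionein (MT2) and glutathione reductase (GR) belong to thiol metabolism. The sixth gene, PGMPM19, was above background on 1 array only and was not tested. Of the 16 clones 6 were above 0 and 10 below, with a median of -0.019 and a range from -0.31 to 0.30. The lowest was CGS2 clone Gm-r1083-1108, at -0.18, -0.39 and -0.36 in the 3 replicates, with a mean of -0.31 ± 0.11 (SD, n = 3), an unadjusted limma p of 0.04555 and an adjusted p of 0.796. It was the only one of the 24 tested sulfur clones with an unadjusted p under 0.05, and 5.53% of all tested clones were under that level. The other CGS2 clones had means of -0.12, 0.10 and -0.02, so the clones of this gene did not share a direction. The highest was SAMDC clone Gm-r1021-1668, at 0.30 ± 0.28 (SD, n = 3), while another SAMDC clone, Gm-r1021-794, was at -0.29 ± 0.44 (SD, n = 3).

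**Figure D3:**
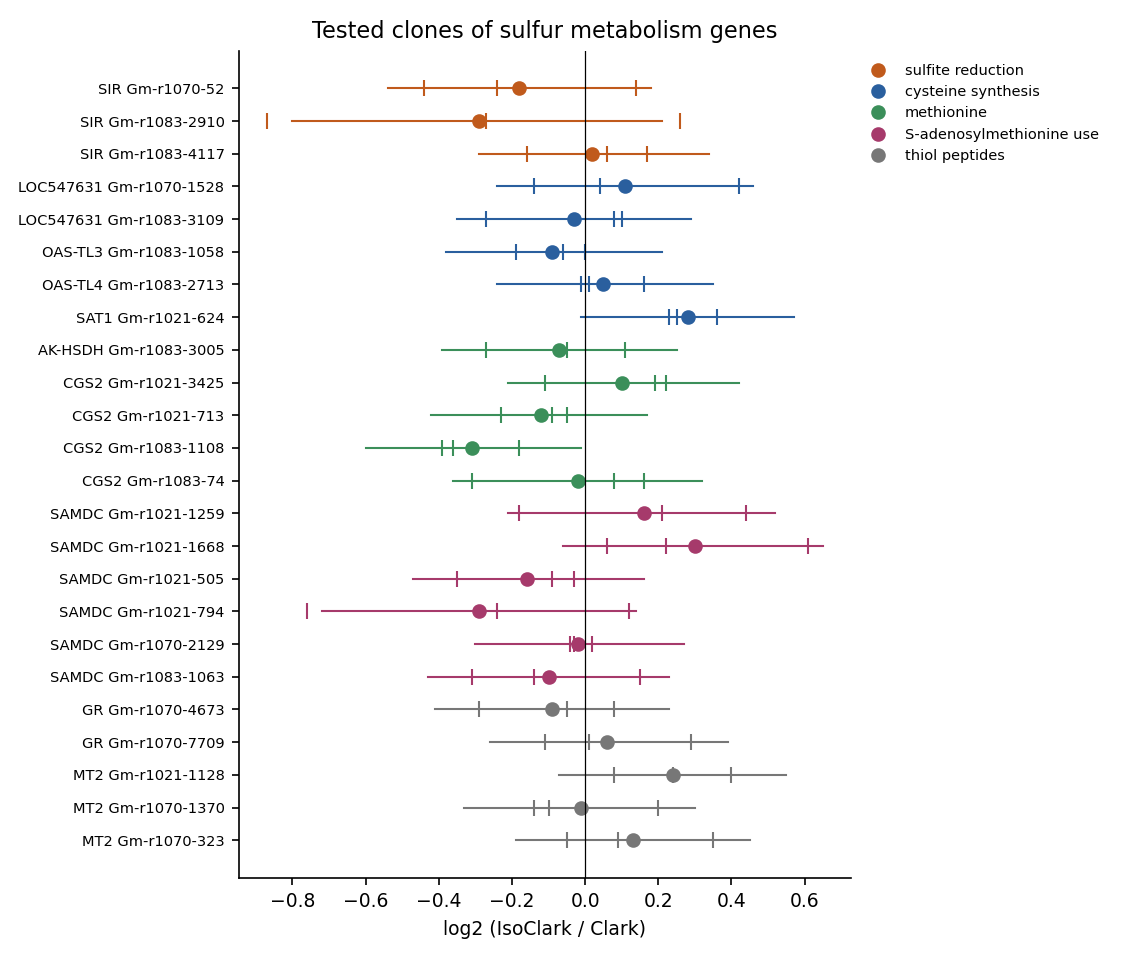
Mean log2 IsoClark over Clark ratio (points), replicate values (ticks) and 95% limma intervals (lines) of the 24 tested clones of sulfur metabolism genes, coloured by role. The interval of CGS2 clone Gm-r1083-1108, from -0.60 to -0.01, ends just below 0, and those of the other clones cross 0.

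After Benjamini-Hochberg adjustment of the limma test, 0 of 13430 clones (0%) passed at 0.05, with a smallest adjusted p of 0.796, and 743 clones had an unadjusted p under 0.05. The 4 clones of SAT1 and SIR were each recomputed under 19 other processing settings, and none passed in any of them. SAT1 stayed above 0 in all 19, between 0.13 and 0.36, and SIR clone Gm-r1083-2910 stayed below 0 in all 19, between -0.57 and -0.004. A term for the day of quantification and testing without the filter on dim spots could not move any of these means. Nor could keeping only spots above background in both channels, since all usable spots of these clones were. Leaving out 1 replicate could not bring SAT1 below 0, because all its replicate values were above 0. Averaging the clones of a gene could not move SAT1, which has 1 clone, and gave each SIR clone the SIR mean of -0.15. The arrays of doubtful direction were turned 1 at a time, and turning both was not computed. SIR clone Gm-r1070-52 changed sign in 1 setting and SIR clone Gm-r1083-4117 in 7, the clone average among them. In the ratios deposited by the authors, turned by the labels, SAT1 was higher in IsoClark on 5 of 6 arrays and the SIR clones on 1, 1 and 4 of 6, poor spots included. No SAT1 or SIR clone was usable on 5 arrays, so no gene of like pattern is named.

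**Figure D4:**
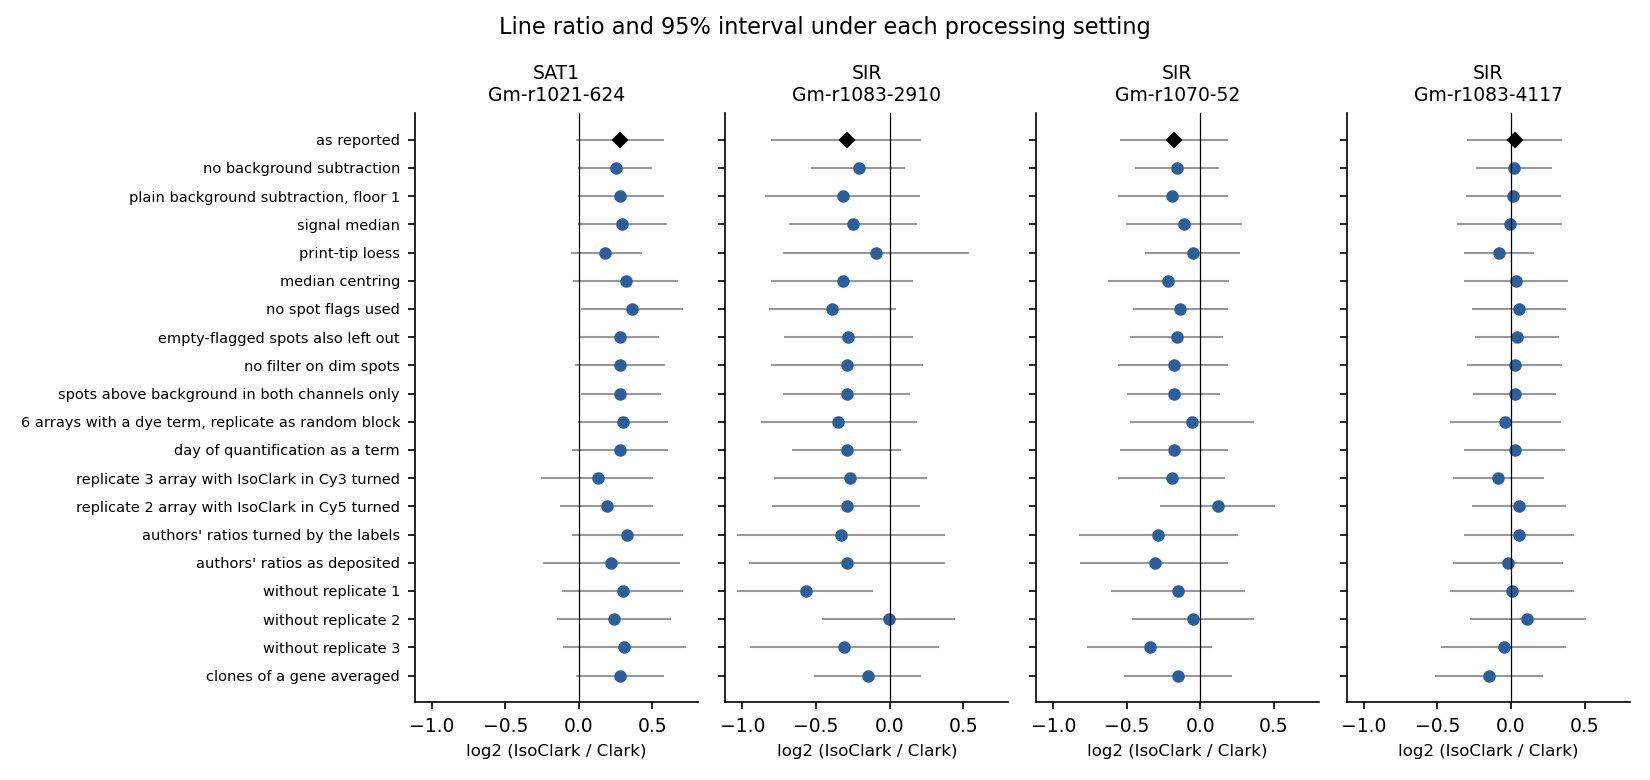
Log2 IsoClark over Clark ratio of each clone with its 95% limma interval, as reported (black diamonds) and under each other processing setting (blue points). SAT1 stays between 0.13 and 0.36, and the SIR clone Gm-r1083-4117 moves across 0.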

How the data were processed

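Each array was scanned in both dyes, and the deposited scanner files hold the spot intensity mean, background and quality marks that the authors obtained with ImaGene 6.1.0. A series table deposited by the authors holds log2 line ratios. Its normalization and centring are not given in the sources used here, its column medians ran from -0.279 to 0.113, and it served as an alternative. Spot area in pixels, another quantity of the deposited scanner files, was used only to describe spots. Clones were named through the platform's probe annotation (1158 rows with 1 symbol, 13 with several).

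Intensities were background corrected (normexp, offset 50, limma 3.58.1, R 4.3.3) and normalized by loess, leaving out poor and blank spots. Ratios were turned to IsoClark over Clark, swap arrays averaged, and the 3 replicate values tested with lmFit and eBayes over clones above background on at least 3 arrays (Benjamini-Hochberg, 0.05). The script was tested on simulated data. The SAT1 and SIR clones were taken by the rule on the gene symbol, and not every clone of the other sulfur genes is named in the text. Members and lists were chosen with earlier results of these data known, and the genes downstream of cysteine from the symbols on the array. No sequence is printed, and the number of arrays limits the precision.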

Additional observations from a re-analysis of the deposited data

How the results depend on the processing

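The SAT1 ratio kept its direction, and SIR clone Gm-r1083-2910 its own, in 19 of 19 alternatives. Among these, a day term, testing without the filter on dim spots and keeping only spots above background in both channels could not move either mean. Averaging clones could not move SAT1, and leaving out 1 replicate could not change its sign. SAT1 fell to 0.19 and 0.13 with 1 array of doubtful direction turned, and both were not turned together. No clone of the array, sulfur clones included, passed the limma test at an adjusted p of 0.05 in any alternative. SIR clone Gm-r1070-52 turned to 0.12 when the IsoClark-Cy5 array of replicate 2 was turned. SIR clone Gm-r1083-4117, at 0.02 as reported, went to -0.009 with the signal median, -0.082 with print-tip loess, -0.041 in the fit of 6 arrays with replicate as a random block, -0.089 when the replicate 3 IsoClark-Cy3 array was turned, -0.02 with the authors' ratios as deposited and -0.15 with the 3 SIR clones averaged. Leaving out 1 replicate gave -0.049 (without replicate 3) to 0.11 for it, -0.57 (without replicate 1) to -0.004 (without replicate 2) for Gm-r1083-2910, -0.34 to -0.049 (without replicate 2) for Gm-r1070-52 and 0.24 to 0.31 for SAT1. The mean log2 signal of Gm-r1083-2910 in Clark, 11.40, was 11.85 without background subtraction and 11.83 with no spot left out, and that of Gm-r1083-4117 in IsoClark, 12.12, was 12.46 and 11.80. The cause of these changes was not tested. Replicate 1 was quantified on another day than replicates 2 and 3. The day term was centred over the replicates, so it could not move a mean and shows nothing about an effect of the day. With it the SAT1 mean was 0.28, as without it, and the adjusted limma p was 0.72. With poor spots kept, 17818 clones could be tested, and with spots above background in both channels only, 10118.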
